A study of Homo sapiens with 6 samples.

Results

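The luminal estrogen receptor programme was followed through 9 genes chosen by symbol (ESR1, PGR, GATA3, FOXA1, SPDEF, MYB, XBP1, TFF1 and TFF3), all of which were found among the 20812 amplicons counted per library. The study asked what overexpression of GIRK1, a subunit of G-protein-gated potassium channels encoded by KCNJ3, does to MCF10A, a non-tumorigenic human mammary epithelial cell line. All libraries were labelled as MCF10A cells, and by label they were of 3 kinds, with 2 libraries each. WT were untransfected cells, and eGFP were cells stably carrying the pIRES2eGFP plasmid. GIRK1 were cells stably carrying that plasmid with the coding sequence of human GIRK1. The transfected cells were selected with G418 and sorted as a population on eGFP fluorescence, so that both transfected lines, but not WT, share drug selection, sorting and the fluorescent protein. Whether 2 libraries of a kind came from separate cultures is not given in the sources used here, so p-values measure only the spread between these libraries, which may be technical.

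The estrogen receptor ESR1 is a transcription factor switched on by its ligand. It drives the progesterone receptor gene PGR and the secreted trefoil peptides TFF1 and TFF3, and in luminal mammary cells it works on chromatin that FOXA1 and GATA3 help to open. SPDEF, MYB and XBP1 are further transcription factors of the luminal state, and XBP1 also serves the unfolded protein response in many other cells. MCF10A cells are known as estrogen receptor negative cells with basal features.

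Libraries held 2506120 to 16040556 reads, and 3 reads, the smallest level taken as detected, stood for 0.187 to 1.20 RPM (reads per 1000000 reads of the library). KCNJ3 had 2408 and 3677 reads in the GIRK1 libraries and 0 in WT replicate 2 and both eGFP libraries. WT replicate 1, the shallowest library, held 48 KCNJ3 reads (19.2 RPM) and went against its label in its epithelial markers. The basal keratin gene KRT5 had 2 reads there and 3862 to 10660.2 RPM in the other 5 libraries, and KRT14 and KRT17, also basal keratins, had 0 reads. It is called the library labelled WT replicate 1 below, where its RNA came from was not tested, and comparisons between the lines were made without it. TP63, a defining basal factor, had 0 reads in all 6 libraries.

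Each of the 9 genes was higher in the library labelled WT replicate 1 than in any other library, by at least 4-fold over the highest of the other 5. The direction was the same for receptors, transcription factors and secreted products. Of the 10751 genes that could be called, 873 (8.12%) passed this rule upwards and 640 (5.95%) passed the matching rule downwards. Of the 873, 267 had under 3 reads in each of the other 5 libraries, as did 6 of the 9 genes. Such a gene could reach the level needed for a call, 4.79 RPM, only in the library labelled WT replicate 1. Its upward call was thus fixed once it could be called. With 1 library on one side there is no replicate check and no p-value. In bulk RNA, a larger share of cells with these transcripts and more RNA per cell cannot be told apart.

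Both steroid receptor genes were read in that library alone. ESR1 (chr6:151656691-152129619, plus strand, GRCh38) had 481 reads there, or 192 RPM with an exact 95% counting interval of 175 to 209.9, and 0 reads in WT replicate 2, both eGFP and both GIRK1 libraries. The detection level of 3 reads was 0.187 to 0.585 RPM in those 5 libraries, and set against the highest of these the level was at least 328-fold higher in the library labelled WT replicate 1. The 481 reads fell on both strands of the amplicon, 41.6% of them forward, and 451 were listed as covering the amplicon. PGR (chr11:101029624-101130524, minus strand), a direct estrogen receptor target, had 157 reads, or 62.6 RPM (53.2 to 73.2), and 0 reads in each of the other 5 libraries, an at least 107-fold difference. Counting intervals and detection levels cover counting error only, since these PCR reads carried no molecular identifiers.

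The pioneer factors differed from the receptors in that they were detected in every library. GATA3 (chr10:8045378-8075203, plus strand) stood at 982 RPM (944 to 1022; 2461 reads) in the library labelled WT replicate 1. In the others it was low but measurable, with 19.2 RPM in WT replicate 2, 17.7 and 14.95 RPM in eGFP, and 14.0 and 13.1 RPM in GIRK1, so it was 51.1-fold over the highest of them. FOXA1 (chr14:37589984-37596059, minus strand) stood at 671 RPM (639 to 704; 1682 reads) in the same library. It had 3.18 RPM in WT replicate 2, 1.95 and 4.50 RPM in eGFP, and 2.79 and 7.35 RPM in GIRK1, resting on 10 to 76 reads, which left a 91.4-fold gap to the highest. The 5 remaining libraries spanned 1.46-fold for GATA3 and 3.77-fold for FOXA1, and all of them lay far below the high one.

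SPDEF and MYB were, like the receptors, under the detection level in the other 5 libraries. SPDEF (chr6:34537802-34556333, minus strand), an ETS-family factor of luminal and secretory epithelium, had 816 reads (326 RPM, 304 to 349) in the library labelled WT replicate 1. The other 5 libraries together held 1 SPDEF read in 52855341, in WT replicate 2, and it was not listed as covering the amplicon. The ratio to these pooled reads was 17210, with a counting interval of 3080 to 680575. Pooled ratios are not comparable with the folds given for the other genes. Set against the highest 3-read level, as for those genes, SPDEF was at least 556-fold higher. MYB (chr6:135181315-135219173, plus strand), a factor best known from blood precursors that estrogen receptor positive breast cells also use, was the weakest of the 9, with 13 reads (5.19 RPM, 2.76 to 8.87). A single MYB read was found elsewhere, in GIRK1 replicate 1, and the ratio to the pooled 5 libraries was 274 (41.2 to 11652). Set against the highest 3-read level, MYB was at least 8.86-fold higher. The MYB level was only just above the 4.79 RPM that a gene needed to be called at all.

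XBP1 (chr22:28794555-28800597, minus strand) was the one member well expressed everywhere and had the smallest excess. It had 2677 RPM (2614 to 2742; 6710 reads) in the library labelled WT replicate 1, 532 RPM in WT replicate 2, 125 and 431 RPM in eGFP, and 452 and 433 RPM in GIRK1. The gap to the next library, WT replicate 2, was 5.04-fold. The amplicon gives 1 count per gene, so the spliced and unspliced forms of XBP1 cannot be told apart.

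The trefoil peptide genes were read in the library labelled WT replicate 1 alone, and TFF1 showed the widest gap of the 9. TFF1 (chr21:42362282-42366594, minus strand), the classical estrogen-induced secreted peptide, had 12796 reads, or 5106 RPM (5018 to 5195), in the library labelled WT replicate 1 and 0 reads in each of the other 5, an at least 8726-fold difference. It ranked 8 among all amplicons of that library by RPM, and 1 of 10751 genes by the log2 ratio to the median of the other 5 (14.10). TFF3 (chr21:42311667-42315651, minus strand) had 419 reads, or 167 RPM (152 to 184), and 0 reads elsewhere, an at least 286-fold difference. TFF2, which lies between TFF3 and TFF1 on chromosome 21, had 2 reads in the same library, under the detection level, and 0 in the others.

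**Figure D1:**
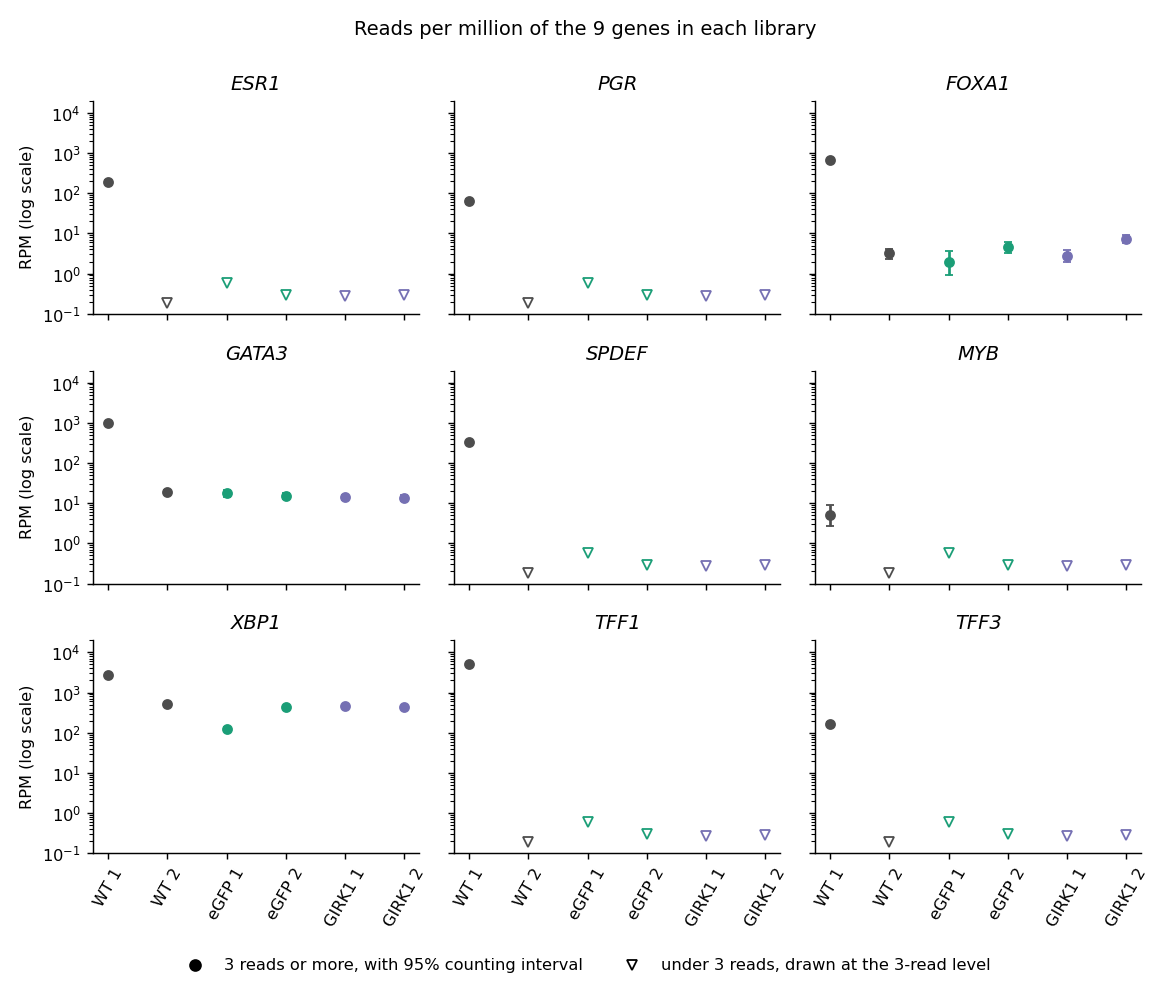
RPM (log scale) of the 9 genes in each of the 6 libraries, with filled points and 95% counting intervals at 3 reads or more, and open triangles at the 3-read level for libraries under it. WT 1 is the highest point in every panel, 6 genes are under 3 reads in all other libraries, and XBP1, GATA3 and FOXA1 are detected throughout.

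Summed over the 9 genes, the library labelled WT replicate 1 held 10189 RPM and the others 145 to 554 RPM. Without XBP1 the sums were 7512 RPM and 16.9 to 22.4 RPM. Thus XBP1 made up most of what the other 5 libraries held of this programme. Only 4 members, ESR1, PGR, TFF1 and TFF3, had 0 reads in all 5. They belonged to 177 genes with at least 10 reads in the library labelled WT replicate 1 and 0 elsewhere, in which TFF1 ranked 1 by reads, ESR1 9, TFF3 10 and PGR 27. Among genes outside the 9 and the lists described below, those of this pattern with the most reads were GFRA1 (812 RPM), a GDNF family receptor, C3orf14 (431 RPM), SYTL5 (282 RPM), the mitochondrial carrier gene UCP2 (273 RPM) and the calcium channel subunit gene CACNG4 (261 RPM).

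Other genes tied to the estrogen receptor were described by the same rule, with the median log2 ratio of the library labelled WT replicate 1 to the median of the other 5 given beside 0.11 for all genes. Of the estrogen receptor targets outside the 9, 13 of 22 that could be called were higher and 0 lower, with a median of 4.02. In this list and those below, a gene under 3 reads in all of the other 5 libraries could only be called higher. GREB1, a receptor cofactor and early target, had 306 RPM against 0 to 0.623 RPM in the others. The secreted-protein isomerase AGR2 had 2516 RPM against 0.195 to 9.72 RPM, and its relative AGR3 had 156 RPM against 0 reads. The remaining 9 targets passed in neither direction.

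Among receptors related to ESR1, the median over the 4 that could be called was 2.77. ESR2, the beta form of the estrogen receptor, had 0 reads in the library labelled WT replicate 1 and at most 3 in any other. Of 10 coregulators, whose median was 1.06, 2 were called higher, NRIP1 (536 RPM against 14.0 to 40.8 RPM), which represses receptor activity and is itself estrogen-induced, and the coactivator NCOA3 (753 RPM against 70.2 to 96.4 RPM). The other 8 coregulators passed in neither direction. Over all genes that could be called, 8.12% were higher.

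Among relatives of the luminal transcription factors and trefoil peptides, 4 of 6 were called higher (median 2.73), namely ELF3 (150 RPM against 0.270 to 0.780 RPM), GATA2 (25.9 RPM against 0 to 0.249 RPM), MYBL1 and MYBL2. ELF3 is an epithelial ETS factor, as SPDEF is.

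The luminal and basal marker lists moved in opposite directions with the 9 genes. Of 14 luminal markers, 10 were called higher and 0 lower (median 5.14), led by the luminal keratin gene KRT19 (924 RPM against 0 reads), MLPH (117 RPM against 0.0970 to 0.873 RPM) and the tight junction gene CLDN4 (208 RPM against 0.975 to 1.80 RPM). Of 15 basal markers, 11 were called lower and 0 higher (median -5.75), led by KRT5, KRT17 and VIM, the mesenchymal filament gene, with 2, 0 and 2 reads. The summed basal level was 435 RPM in the library labelled WT replicate 1 and 11494 to 20679 RPM in the others, and the summed luminal level was 9224 RPM and 632 to 923 RPM. Of the fibroblast, blood and endothelial markers, 0 of 4 were higher and 2 were lower (FAP and CD14, each with 0 reads there), their median was -3.13 and their sum was 18.8 RPM against 35.0 to 74.7 RPM. The collagen gene COL1A1, also a fibroblast marker, went the other way, with 15.6 RPM against 2.81 to 9.17 RPM, short of a call. Of the 21 markers in the list, 9 were at 0 reads in all 6 libraries, among them COL1A2, PDGFRA, PTPRC, CD3E and VWF. The part that a difference in cell type played in the values of the 9 genes was not tested.

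**Figure D2:**
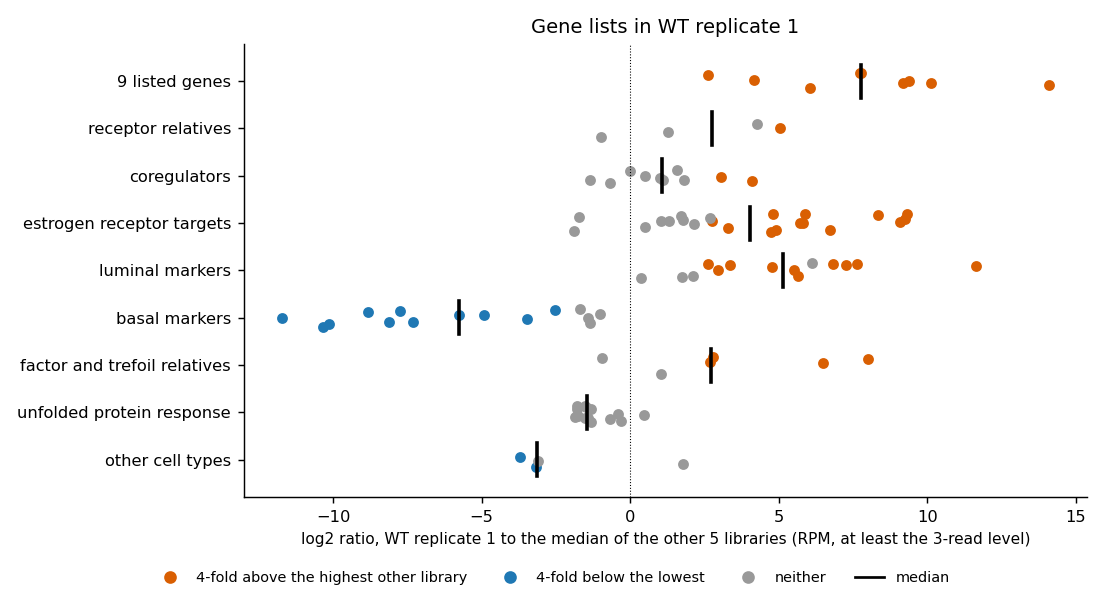
Log2 ratio of the library labelled WT replicate 1 to the median of the other 5 libraries, with levels under 3 reads set to the 3-read level, 1 point per gene that could be called, coloured by call, and a bar at each list's median. The 9 listed genes, the estrogen receptor targets (13 of 22) and the luminal markers (10 of 14) hold only upward calls, the basal markers only downward calls (11 of 15).

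The unfolded protein response, the other programme in which XBP1 acts, was called in neither direction for any of its 14 genes, and its median was -1.45. Its summed level was 1890 RPM (including DDIT3, which could not be called) in the library labelled WT replicate 1 and 2829 to 5248 RPM in the others. Of all genes that could be called, 8.12% were higher and 5.95% lower. The lack of calls among 14 genes is close to these shares and is not read as a result. A lower call also had to lie 4-fold under the lowest of the other 5 libraries. For 12 of the 14 genes that lowest library was eGFP replicate 1. XBP1 was higher in the library labelled WT replicate 1, and the part of the unfolded protein response in its level was not tested.

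The nearest measured neighbours of the 9 genes on each side of the chromosome made up 17 distinct genes. Of these, 9 could be called, and 0 were higher and 0 lower, beside 8.12% and 5.95% of all genes. A count of 0 among 9 genes is close to these shares and is not read as a result. The remaining neighbours stayed under 4.79 RPM in every library and could not be called. The amplicons of the 9 genes were 103 to 109 bases long.

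Promoter windows from RefSeq (GRCh38.p14, 250 bases before to 50 after a start site) were found for 7 of the 9 genes, 20 windows in all, since several genes have alternative starts. The full estrogen response element, GGTCA followed after 3 bases by its reverse complement TGACC, matched 0 of the 20 windows and 0.057% of all 35116 windows. Its half-site GGTCA, searched like the other motifs on both strands, matched 8 windows of 4 genes (ESR1, GATA3, PGR and XBP1) against 37.4% of all windows, and every full element also holds the half-site. The forkhead motif TGTTTAC matched 1 window, of MYB, against 3.42% of all windows, and the GATA motif AGATAAG and the XBP1 motif TGACGTGG matched 0 against 2.68% and 0.729%. A match is only a description of the sequence. The bases before the start site are shown for the first GATA3 start (chr10:8045083-8045332, plus strand), which carries a half-site at position -213, and for MYB (chr6:135181058-135181307, plus strand), which carries the only forkhead match, at position -14, with the matches in capitals.
GATA3: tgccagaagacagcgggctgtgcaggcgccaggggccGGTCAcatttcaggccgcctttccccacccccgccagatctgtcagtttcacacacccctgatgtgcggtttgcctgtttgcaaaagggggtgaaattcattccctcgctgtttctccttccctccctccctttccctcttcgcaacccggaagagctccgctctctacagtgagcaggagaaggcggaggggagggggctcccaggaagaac
MYB: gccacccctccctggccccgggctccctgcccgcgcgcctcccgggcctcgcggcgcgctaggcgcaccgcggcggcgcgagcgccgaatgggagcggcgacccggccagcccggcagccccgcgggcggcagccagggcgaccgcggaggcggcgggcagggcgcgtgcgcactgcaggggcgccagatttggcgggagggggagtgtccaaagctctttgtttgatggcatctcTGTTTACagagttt

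Between the lines, GIRK1 was compared with eGFP and with WT replicate 2 for the members detected there. Of the 9 genes, 3 (XBP1, GATA3 and FOXA1) passed the filter on low counts in the 5 libraries without the library labelled WT replicate 1. The other 6 had at most 1 read in any of these libraries, so that no fold is given and a difference was not detectable at this depth. None of the 3 tested members passed the adjusted threshold of 0.05 in any of the 3 comparisons by edgeR's quasi-likelihood test, against 1.6% of 11779 genes for GIRK1 against eGFP, 0.229% for GIRK1 against WT replicate 2 and 0% for eGFP against WT replicate 2 (418 genes at an unadjusted p under 0.05, and 5 called by DESeq2). Of the 3 members, 0 had an unadjusted p under 0.05 in these comparisons, beside 2218 of all genes for GIRK1 against eGFP and 869 for GIRK1 against WT replicate 2.

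XBP1 averaged 443 ± 12.9 RPM in GIRK1 and 278 ± 216 RPM in eGFP (SD, n = 2 each). The 2 GIRK1 libraries lay above both eGFP libraries, but GIRK1 replicate 2 and eGFP replicate 2 differed by less than their counting error, and the 2 eGFP libraries differed 3.45-fold from each other. The log2 fold change was 0.66 (95% interval -0.48 to 1.79, edgeR adjusted p = 0.485) against eGFP and -0.24 (-1.61 to 1.13, edgeR adjusted p = 0.963) against WT replicate 2. Between eGFP and WT replicate 2 it was -0.90 (-2.25 to 0.44, edgeR adjusted p = 0.953). These intervals leave room for changes of more than 2-fold either way in GIRK1 against WT replicate 2. The outcome rested on the eGFP libraries. Without eGFP replicate 1 the log2 fold change was 0.06 (edgeR adjusted p = 0.893) for GIRK1 against eGFP and -0.30 for eGFP against WT replicate 2. Without eGFP replicate 2, XBP1 passed with a log2 fold change of 1.72 (edgeR adjusted p = 0.000145) for GIRK1 against eGFP and -1.97 (edgeR adjusted p = 0.000396) for eGFP against WT replicate 2, and in both fits the lone eGFP library was assumed to vary like the GIRK1 libraries.

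In order of level, XBP1 ran from 532 RPM (520 to 543) in WT replicate 2 through GIRK1 replicate 1, GIRK1 replicate 2 and eGFP replicate 2, each of which overlapped the next of these 3 in its counting interval, down to 125 RPM (116 to 135) in eGFP replicate 1. Genes of the unfolded protein response were low in the same library. Among the 5 libraries, eGFP replicate 1 had the lowest RPM for 12 of the 14 response genes with at least 50 reads in all, or 85.7%, against 39.8% of 11150 genes with that many reads. Their summed level was 2829 RPM in eGFP replicate 1 and 4469 to 5248 RPM in the other 4 libraries. This library was also the shallowest of the 5, and the part of depth or of the stress response in its XBP1 value was not tested.

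GATA3 varied least. It averaged 13.6 ± 0.637 RPM in GIRK1 and 16.3 ± 1.98 RPM in eGFP (SD, n = 2 each), with 19.2 RPM in WT replicate 2. In order of level every library had a counting interval overlapping that of its neighbour, whereas WT replicate 2 (17.1 to 21.5 RPM) lay above GIRK1 replicate 1 (11.9 to 16.4 RPM) and GIRK1 replicate 2 (11.0 to 15.5 RPM). The log2 fold change was -0.30 (-0.93 to 0.32, edgeR adjusted p = 0.563) against eGFP and -0.48 (-1.21 to 0.25, edgeR adjusted p = 0.811) against WT replicate 2. For eGFP against WT replicate 2 it was -0.17 (-0.91 to 0.57, edgeR adjusted p = 0.960).

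FOXA1 was low and uneven. It averaged 5.07 ± 3.22 RPM in GIRK1 and 3.22 ± 1.80 RPM in eGFP (SD, n = 2 each), and the replicates differed 2.63-fold in GIRK1 and 2.31-fold in eGFP. GIRK1 replicate 2 was the highest library and eGFP replicate 1 the lowest, with GIRK1 replicate 1 and WT replicate 2 between the eGFP libraries, so the groups overlapped. The log2 fold change was 0.58 (-0.86 to 2.01, edgeR adjusted p = 0.636) against eGFP, 0.69 (-1.03 to 2.42, edgeR adjusted p = 0.902) against WT replicate 2, and 0.12 (-1.62 to 1.86, edgeR adjusted p = 0.988) for eGFP against WT replicate 2. Without GIRK1 replicate 2 the first value turned to -0.28 and the second to -0.18.

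**Figure D3:**
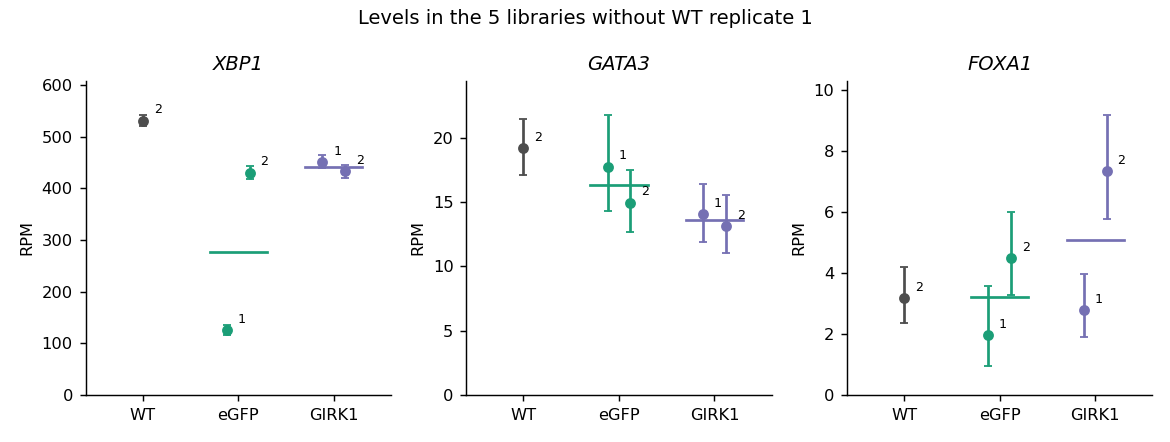
RPM of XBP1, GATA3 and FOXA1 in the 5 libraries without WT replicate 1, with 95% counting intervals, replicate numbers beside the points and lines at the mean of 2 libraries. The XBP1 level of eGFP 1 (125 RPM) lies apart from the others, GATA3 spans 13.1 to 19.2 RPM, and the FOXA1 replicates differ by more than 2-fold in both transfected lines.

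**Figure D4:**
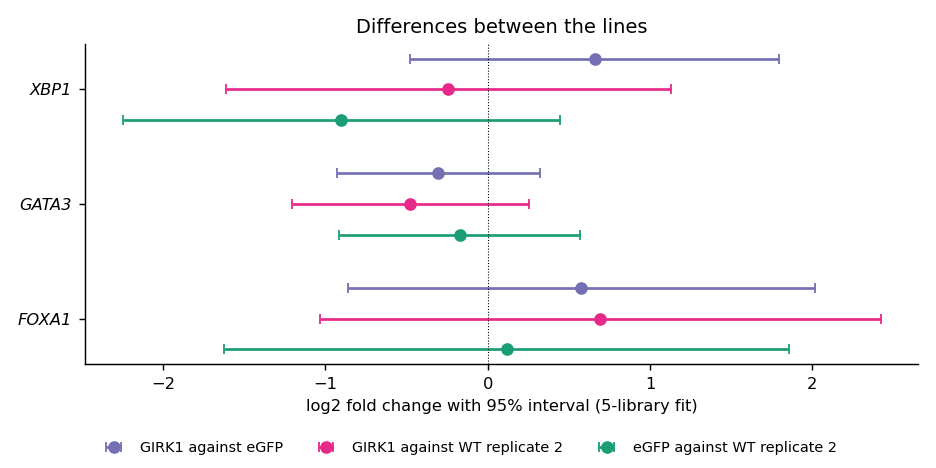
Log2 fold changes with 95% intervals from the 5-library fit for XBP1, GATA3 and FOXA1 in GIRK1 against eGFP, GIRK1 against WT replicate 2 and eGFP against WT replicate 2. All 9 intervals include 0, and those of FOXA1 are the widest.

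The study's own rule was taken as group means of RPM that differ 2-fold or more with a coefficient of variation under 0.7 within both groups. It called 0 of the 9 members in GIRK1 against eGFP. Only XBP1, GATA3 and FOXA1 had reads in both groups, and the other members could not be called. Of 13200 genes with reads in both groups it called 9.92% in either direction. A count of 0 among 3 genes is close to this share and is not read as a result. The fold of mean RPM was 1.59 for XBP1, 1.57 for FOXA1 and 0.831 for GATA3. XBP1 also had a coefficient of 0.778 in eGFP.

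In GIRK1 against eGFP, 1.6% of all genes tested were called. Beside this share, counts of 0 in the short lists around the 9 genes are not read as a result. By edgeR's test 0 of 17 estrogen receptor targets (median log2 fold change -0.04), 0 of 10 coregulators (0.17), 0 of 3 receptor relatives (-0.66), 0 of 4 relatives of the luminal factors (-0.06) and 0 of 15 unfolded protein response genes (0.40) passed, beside a median of 0.02 over all genes tested. At an unadjusted p under 0.05 there were 4, 2, 0, 1 and 3 genes, beside 2218 of all 11779, and for luminal, basal and other cell type markers there were 4 of 10, 7 of 15 and 3 of 7. Of these markers, 10% of the luminal (1 gene), 20% of the basal and 14.3% of the other cell type genes (1 gene) passed the adjusted threshold. Of 10 luminal markers only RAB25, a small GTPase of epithelial recycling endosomes, passed, with 0 reads in both eGFP libraries, 618 and 422 reads in GIRK1 and 50 in WT replicate 2 (edgeR adjusted p = 0.00215). Against WT replicate 2, RAB25 was higher by 3.97 on the log2 scale (edgeR adjusted p = 0.0416). Among 15 basal markers, KRT17 rose (log2 fold change 2.17, edgeR adjusted p = 0.00764), and LAMB3, which encodes a laminin chain of the epithelial basement membrane, fell (-2.81, edgeR adjusted p = 0.00301). Of 7 markers of other cell types, DCN, a matrix proteoglycan gene of fibroblasts, rose by 3.37 (edgeR adjusted p = 0.0328), from 4 and 38 reads in eGFP to 300 and 261 in GIRK1. KRT17, LAMB3 and DCN did not pass against WT replicate 2, where their log2 fold changes were 1.43, -1.55 and 1.37 (edgeR adjusted p = 0.181, 0.0816 and 0.661). Names of the deposited data put both GIRK1 libraries under a common tag that differs from that of the controls, and if the tag marks a run, run and line cannot be told apart.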

How the data were processed

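RNA of 6 libraries labelled MCF10A was measured by Ion AmpliSeq Transcriptome sequencing. The authors used the Ion Torrent suite to map reads to a reference of amplicons, and the deposited tables hold whole-number read counts and covering reads for 20812 amplicons, 1 per gene symbol. The deposited RPM values are these counts per 1000000 reads of the library. How reads of near-identical copies were handled is not given in the sources used here. The 10 spike-in amplicons had 0 reads.

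Groups came from the labels. The 9 genes, the gene lists, the tests and the separate treatment of WT replicate 1 were chosen with earlier results of these data known. The named-gene rule took the 9 genes, up to 3 called genes of each list and direction by size, and, outside the 9 and the lists, the 5 genes with the most reads among those read in WT replicate 1 alone. COL1A1, KRT14, TP63, ESR2, TFF2, MYBL2, MYC, BCL2 and the markers at 0 reads were named outside it, after their values were seen. Of the list genes, 1 was matched by an older symbol and 1 was not found.

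For WT replicate 1, levels under 3 reads were set to 3 reads, and a call needed 4-fold over the highest, or under the lowest, of the other 5 libraries, among genes that reached 4.79 RPM in some library. This contrast had no test. Counting intervals are exact Clopper-Pearson intervals (95%). Between lines, counts of 5 libraries were fitted with edgeR 4.0.16 (R 4.3.3; TMM, filterByExpr, glmQLFit, glmQLFTest) by group with Benjamini-Hochberg adjustment over 11779 genes, and the lone WT library was assumed to vary like the others. All 3 comparisons came from this fit and share libraries. The script was tested on simulated counts for GIRK1 against eGFP. Of 200 genes changed 2-fold it recovered 19 (9.5%), and 8 unchanged genes were called. Of 200 genes changed 8-fold it recovered 187 (93.5%), and 14 unchanged genes were called. Most 2-fold changes would thus be missed by this fit. Alternatives covered scaling, filters, folds, DESeq2 1.42.0, the replicate block, all 6 libraries and left-out libraries. Gene positions are from the GENCODE annotation of GRCh38, and promoter windows from RefSeq. Amplicon and protein sequences were not used here, and some list genes are not reported here.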

Additional observations from a re-analysis of the deposited data

How the results depend on the processing

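The number of the 9 genes called higher in the library labelled WT replicate 1 stayed at 9 with TMM scaling and with covering reads. It was also 9 with a 2-fold limit, WT replicate 2 as the only comparator and (added after seeing the data) without each of the other 5 libraries in turn. A lower limit or fewer comparators cannot remove a call, so these last settings were no check. Only TMM scaling, covering reads and an 8-fold limit could have lowered the number. With an 8-fold limit it was 7, since XBP1 missed the fold and MYB was too low to be called. All genes called higher numbered 2115 with the 2-fold and 446 with the 8-fold limit, and 885 to 994 with 1 library left out. The bounds of the genes at 0 reads rest on the shallow eGFP replicate 1. Without it they rose from 8.36 to 9.35 on the log2 scale for ESR1, from 6.74 to 7.74 for PGR, from 13.09 to 14.09 for TFF1 and from 8.16 to 9.16 for TFF3, and the FOXA1 ratio was 7.22 without GIRK1 replicate 2 in place of 6.51.

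The counts of all genes called between lines moved. For GIRK1 against eGFP (188), they were 865 without a filter, 107 with at least 10 reads in every library, 644 by DESeq2 and 158 to 2997 with 1 library left out. For GIRK1 against WT replicate 2 (27), they were 133, 16, 128 and 34 to 576, and for eGFP against WT replicate 2 (0 by edgeR, 418 at an unadjusted p under 0.05), 6 without a filter, 5 by DESeq2 and 5 to 1268 with 1 library left out. The highest counts of the first and the last comparison, 2997 and 1268, came without eGFP replicate 2, and without eGFP replicate 1 they were 973 and 6. With all 6 libraries, edgeR called 0 genes for GIRK1 against eGFP and 0 for GIRK1 against WT, with 606 and 648 at an unadjusted p under 0.05. With a replicate block added, the counts were 549, 77 and 1. The numbers do not pair the libraries by any label, and same-numbered eGFP and GIRK1 libraries deviated together with a correlation of 0.193 over 9288 genes in 2 pairs. The cause of these moves was not tested.

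XBP1, GATA3 and FOXA1 did not pass in these comparisons under any alternative run except XBP1 without eGFP replicate 2. For GIRK1 against eGFP the log2 fold changes ran from 0.06 to 1.72, from -0.49 to -0.12 and from -0.28 to 1.27, and the adjusted p of XBP1 from 0.000145 to 0.971. Directions turned in 7 cases, none past the threshold. FOXA1 turned to -0.28 for GIRK1 against eGFP and to -0.18 against WT replicate 2 without GIRK1 replicate 2, to -0.58 for eGFP against WT replicate 2 without eGFP replicate 2 (leave-one-out ranges -0.18 to 1.24 and -0.58 to 0.50 against WT replicate 2), and to -5.91 and -6.51 against WT with all 6 libraries, where the WT group includes the high library. XBP1 turned to 0.22 against WT replicate 2 with the replicate block, and GATA3 to 0.0069 for eGFP against WT replicate 2 without eGFP replicate 2 (range -0.36 to 0.0069). Of XBP1, GATA3 and FOXA1, the only members it could call, the study's rule called 0 on raw counts and without the limit on the coefficient of variation. The split of that rule over all genes was 627 higher and 682 lower on RPM but 1270 and 270 on raw counts.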
